A study of Mus musculus with 22 samples.

Results

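The 10 transcription factors described here, Nkx2-1, Foxa1, Foxa2, Etv5, Sox2, Sox9, Gata6, Cebpa, Klf5 and Elf3, set or maintain epithelial identity in the lung. They were chosen by name, and all 10 were found by Ensembl identifier among the 54373 genes that both count tables list, of which 21793 are protein-coding. RNA of sorted lung epithelial cells (ECs), taken as live CD45- EpCAM+ singlets by the labels and, by the study's account of this experiment, also CD31-, was sequenced to ask how the aryl hydrocarbon receptor (AhR) and the cytochrome P450 enzyme CYP1B1 act on EC gene expression at steady state and in house dust mite (HDM) allergy. The steady-state table holds 4 libraries from untreated C57BL/6 wildtype (WT) mice, 3 labelled AhR-/- and 3 labelled CYP1B1-/-, and in the HDM table each genotype has 4 libraries, made after sensitization and challenge with HDM through the nose. Both knockout lines were backcrossed to C57BL/6. By the study's methods male and female mice were used, matched for age and sex. Y-linked reads, described below, were not matched between the libraries labelled AhR-/- and WT after HDM, nor between the states. The methods give only a lower limit of age for the mice of the whole study, and the sex and age behind a library are not given in the sources used here. Whether a library came from a single mouse or from pooled mice is not given in the sources used here, so p-values measure only the spread between these libraries. Each table is named as a run of its own, and therefore the HDM state and the sequencing run cannot be told apart.

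Nkx2-1 is a homeodomain factor that marks the lung from its first bud and later switches on surfactant genes. Foxa1 and Foxa2 are forkhead factors that open chromatin in endoderm, and Gata6 is a zinc finger factor of the same early endoderm program. Sox2 marks the airway side of the branching lung and Sox9 its distal tips, Etv5 is an ETS factor downstream of FGF signaling in alveolar type 2 cells, Cebpa drives the maturation of alveolar type 2 and club cells, and Klf5 and Elf3 act in differentiation and in the epithelial response to injury.

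AhR binds DNA through the core GCGTG, and the Foxa factors through TGTTTNC, so these letters were looked up on both strands in the 250 bases before each RefSeq start (GRCm38.p6, 10 windows of 7 factors). The longer AhR form TNGCGTG and the letters of 6 other factor families were searched in the same way. The windows of Nkx2-1, Foxa1 and Foxa2 are shown because these genes differed together between the libraries labelled AhR-/- and WT after HDM. For Foxa2, only the windows before starts 2 and 3, which hold the AhR core, are shown. The window before Foxa2 start 1 (chr2:148046970-148047219) held none of the letters searched and is not printed. All run 5′ to 3′ on the minus strand and capitals mark a match to the AhR or the forkhead letters. Bases in annotated exons were left out, so 240 bases of the Foxa1 window are shown.
Nkx2-1, chr12:56536909-56537158: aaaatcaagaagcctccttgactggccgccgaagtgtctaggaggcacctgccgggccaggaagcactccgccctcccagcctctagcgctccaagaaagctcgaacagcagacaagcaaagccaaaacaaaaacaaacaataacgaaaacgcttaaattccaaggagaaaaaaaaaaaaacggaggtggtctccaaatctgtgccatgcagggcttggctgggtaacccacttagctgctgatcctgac
Foxa1, chr12:57546122-57546361: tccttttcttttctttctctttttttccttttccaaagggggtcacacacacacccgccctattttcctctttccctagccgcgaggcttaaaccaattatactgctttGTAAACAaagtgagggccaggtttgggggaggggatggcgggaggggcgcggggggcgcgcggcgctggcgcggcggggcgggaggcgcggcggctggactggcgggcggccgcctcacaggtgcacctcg
Foxa2, start 2, chr2:148045949-148046198: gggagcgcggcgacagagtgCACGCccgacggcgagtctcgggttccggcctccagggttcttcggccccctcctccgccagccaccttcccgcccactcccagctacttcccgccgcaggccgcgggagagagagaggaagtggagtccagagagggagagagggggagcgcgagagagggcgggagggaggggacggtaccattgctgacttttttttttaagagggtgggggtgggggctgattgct
Foxa2, start 3, chr2:148045465-148045714: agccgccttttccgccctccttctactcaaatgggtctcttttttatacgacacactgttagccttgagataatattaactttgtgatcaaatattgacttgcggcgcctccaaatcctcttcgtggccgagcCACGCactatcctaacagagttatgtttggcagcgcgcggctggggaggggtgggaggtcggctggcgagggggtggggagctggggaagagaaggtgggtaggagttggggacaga
Of the 10 windows, the AhR core was in the windows before starts 2 and 3 of Foxa2, as CACGC on the strand shown. It was present in 28.2% of all 32851 RefSeq windows, and the longer form TNGCGTG, present in 4.1% of them, was in none of the 10. The forkhead letters were in 17.8% of all windows and lay 141 to 135 bases before the start of Foxa1. The Nkx2-1 window shown held none of the 9 motifs. Elsewhere, the forkhead letters were in the Etv5 window, the Nkx2-1 letters CAAGTG (11.6% of all windows) in that of Elf3, the C/EBP letters TTGCNNAA (9.56%) in that of Sox2 and the Gata letters AGATAA (9.99%) in that of Foxa2 start 3. The ETS letters CCGGAAG (6.91% of all windows), the KLF letters GGGTGTGG (3.2%) and the SOX letters ACAATG (10.7%) were in none of the 10. A match describes letters in a window and is not a measured binding site.

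Libraries held 9654825 to 17878442 counts. The predicted gene Gm10800 took 9.54% to 29.2% of the counts in steady-state libraries and 0.00819% to 71.9% in HDM libraries, so the depth left for other genes was lowest after HDM, where 3 counts correspond to as much as 1.36 in CPM, counts scaled to the library's effective size. CPM values here are scaled on the protein-coding genes by the trimmed mean of M values (TMM) over all 22 libraries. Epcam, which encodes the surface protein of the sort, was at 68.2 to 312 CPM in all 22 libraries, while Ptprc, which encodes CD45 and was sorted against, was at 2.02 to 52.6 CPM at steady state and at 14.8 to 669 CPM after HDM. Neither targeted gene was lower in the libraries labelled with its knockout. Ahr was at 15.5 to 20.1 CPM at steady state in the libraries labelled AhR-/- and at 6.38 to 12.3 CPM in WT, and Cyp1b1 at 3.62 to 5.89 CPM in the libraries labelled CYP1B1-/- and at 0.644 to 1.91 CPM in WT. The counts are summed over all exons, so a transcript without the deleted exons would still be counted, and genotypes are therefore given as labelled.

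Replicates 3 and 4 of the HDM libraries labelled AhR-/- stood apart from the other 10 HDM libraries. They carried Y-linked reads, with Ddx3y at 67.3 and 69.6 CPM against at most 0.0859 CPM in the other HDM libraries, whereas all 10 steady-state libraries carried them (19.7 to 99.8 CPM). In these 2 libraries the 14 alveolar type 1 genes summed to 23330 and 28780 CPM, against 719 to 14520 CPM in the other HDM libraries and 26990 to 41940 CPM at steady state. Their 24 hematopoietic markers summed to 351 and 364 CPM, within the 281 to 539 CPM of the steady-state libraries and below the 775 to 6155 CPM of the other 10 HDM libraries. The genes behind that sum differed. Csf1r, the receptor of a myeloid growth factor, was at 197 to 280 CPM in the steady-state libraries and at 64.5 to 109 CPM in the HDM libraries labelled AhR-/-, whereas the leukocyte gene Cd52 was at no less than 9.54 CPM in the latter, at no more than 1.56 CPM in the steady-state libraries of that genotype and at up to 10.7 CPM in those of WT. Other measures of these 2 libraries lay outside the steady-state range. The 20 alveolar type 2 genes summed to 10420 and 11150 CPM against at most 9253 CPM at steady state, the 18 pan-epithelial genes to 1997 and 2475 CPM against at least 3283 CPM, and Gm10800 took 71.9% and 62.7% of the counts against at most 29.2%. Reg3g, an antimicrobial lectin gene, was at no less than 366 CPM in all 4 HDM libraries labelled AhR-/- and at no more than 30.9 CPM at steady state. The main results of the factors that rest on them are given with and without them. At steady state, replicate 2 of the libraries labelled CYP1B1-/- stood apart, with the mitochondrial gene mt-Cytb at 92.1 CPM against 1803 to 3710 CPM in the other 9 libraries.

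At steady state the levels, compared between genes as CPM per kilobase of exon, followed nearly the same order in the 3 genotypes. Nkx2-1 led in WT at 62.8 ± 39.9 CPM per kilobase (SD, n = 4), followed by Foxa2 at 23.2 ± 4.42, and their ranges overlapped. Elf3 (7.71 ± 1.23), Klf5 (5.96 ± 0.995), Gata6 (5.84 ± 0.913), Foxa1 (5.14 ± 1.22) and Etv5 (4.40 ± 0.452) formed a middle group in which each gene overlapped the next. Sox9 at 0.461 ± 0.0888, Cebpa at 0.450 ± 0.0796 and Sox2 at 0.224 ± 0.124 CPM per kilobase lay below the whole range of Etv5. After HDM, the WT order was led by Etv5 at 10.1 ± 2.96 CPM per kilobase and Elf3 at 9.41 ± 6.19 (SD, n = 4), followed by Nkx2-1 at 5.54 ± 2.59, and each gene overlapped the next except Gata6, which lay above the whole range of Sox9. In the HDM libraries labelled AhR-/-, Nkx2-1 at 25.9 ± 9.05 and Foxa2 at 16.9 ± 2.19 CPM per kilobase had the highest means (SD, n = 4). Without replicates 3 and 4 of that group, Nkx2-1 was still first at a mean of 33.6 CPM per kilobase (n = 2), but Etv5 at 23.2 and Elf3 at 18.7 lay above Foxa2 at 17.5, with overlapping libraries.

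**Figure D1:**
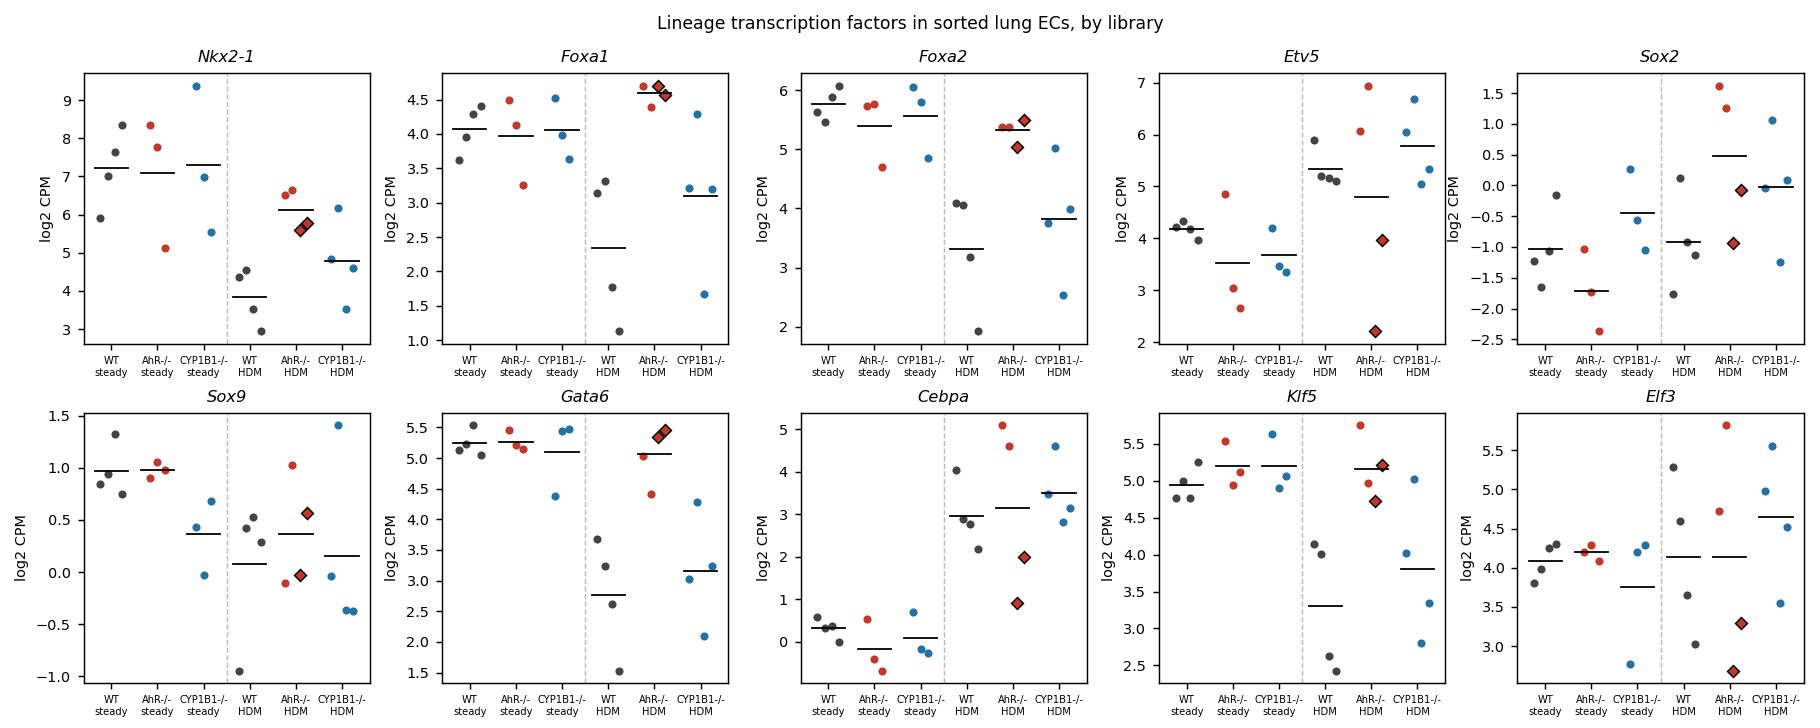
Level of each of the 10 factors in each of the 22 libraries on the log2 CPM scale (vertical axis), by genotype and state (horizontal axis), with a line at each group mean. Diamonds are the 2 HDM libraries labelled AhR-/- that carry Y-linked reads. They lie below the other 2 libraries of their group for Nkx2-1, Etv5, Sox2, Cebpa and Elf3. They lie above every WT HDM library for Nkx2-1, Foxa1, Foxa2, Gata6 and Klf5.

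After HDM, 5 of the 9 factors tested were higher in the libraries labelled AhR-/- than in WT and none was lower, by edgeR's quasi-likelihood test at a Benjamini-Hochberg adjusted p of at most 0.05. Over all 14161 genes tested, 22.1% passed, 9.22% of them in the higher direction as a share of all genes. All 9 factors had a log2 fold change above 0, against 49.9% of all genes, and their median was 1.72 against 0.00 over all genes. The factors that rose were Nkx2-1, Foxa1, Foxa2, Gata6 and Klf5, whereas Etv5, Sox9, Cebpa and Elf3 did not pass. Sox2 was not tested in this table because its counts did not pass the filter on low counts.

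Nkx2-1 was at 91.9, 99.4, 48.7 and 54.4 CPM in the 4 libraries of the genotype labelled AhR-/- and at 20.4, 23.3, 11.6 and 7.63 CPM in WT. Every library labelled AhR-/- was above every WT library, and the log2 fold change was 2.21 ± 0.57 (here and for all fold changes, ± is the standard error) with an edgeR adjusted p of 0.0277.
Gata6 was at 32.6, 21.3, 40.5 and 44.0 CPM in the libraries labelled AhR-/- and at 12.8, 9.39, 6.09 and 2.82 CPM in WT. Its groups did not overlap either, with a log2 fold change of 2.19 ± 0.52 (edgeR adjusted p = 0.0261), and replicates 3 and 4 held its highest levels.
Foxa1 had the narrowest spread of the 5 among the libraries labelled AhR-/-, at 26.0, 20.9, 25.9 and 23.7 CPM, against 8.79, 9.90, 3.35 and 2.12 CPM in WT. Its log2 fold change was 2.02 ± 0.58 (edgeR adjusted p = 0.0342), and that of its relative Foxa2 was 1.81 ± 0.54 (edgeR adjusted p = 0.036). Foxa2 was at 41.7, 41.3, 32.8 and 44.9 CPM in the libraries labelled AhR-/- and at 17.0, 16.5, 8.98 and 3.72 CPM in WT.
Klf5, a Krüppel-like factor of epithelial proliferation and repair, was at 54.0, 31.2, 26.4 and 36.9 CPM against 17.7, 15.98, 6.09 and 5.32 CPM in WT, a log2 fold change of 1.72 ± 0.55 (edgeR adjusted p = 0.0436). The groups of Foxa1, Foxa2 and Klf5 did not overlap, which held for 9.63% of all genes tested in this direction.

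Etv5, Cebpa and Elf3 split within the group labelled AhR-/-. Etv5 was at 67.3 and 123 CPM in replicates 1 and 2 but at 4.55 and 15.6 CPM in replicates 3 and 4, against 34.2 to 59.6 CPM in WT. Cebpa was at 34.2 and 24.3 CPM in replicates 1 and 2 and at 1.82 and 3.89 CPM in replicates 3 and 4, with 4.42 to 16.3 CPM in WT. Elf3, an ETS factor of epithelial differentiation, was likewise at 26.4 and 56.6 CPM against 6.37 and 9.72 CPM, with 8.08 to 38.8 CPM in WT. For these 3 factors replicates 1 and 2 lay above replicates 3 and 4, and the group covered the WT range or more. Nkx2-1 had the same order (91.9 and 99.4 against 48.7 and 54.4 CPM), but with every library above WT. Sox2 had it as well (3.01 and 2.32 against 0.455 and 0.884 CPM). Sox9 was counted 2 to 24 times per library in this group and 5 to 18 times in WT, and Sox2 1 to 84 times and 3 to 6 times. Sox9 did not pass, and Sox2 was not tested in this table, so for both the depth limits what can be said.

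Without replicates 3 and 4, the log2 fold changes of the 5 factors that rose were 1.78 to 2.55, but none of the 5 passed (edgeR adjusted p = 0.202 for each), nor did any of all 15713 genes tested in that fit. Of the 10 factors then tested, which included Sox2, 8 had an unadjusted p under 0.05, as did 19.9% of all genes. Leaving out single libraries also ended the calls: none of the factors passed without replicate 1, 3 or 4 of the libraries labelled AhR-/- or without WT replicate 3 or 4, and 1 passed without WT replicate 1. The whole comparison lost its calls with them, since 0 genes of all those tested passed in the same 5 fits and 6.13% without WT replicate 1. The log2 fold changes of the 5 factors were 1.49 to 2.56 over the 8 fits with a library left out.

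**Figure D2:**
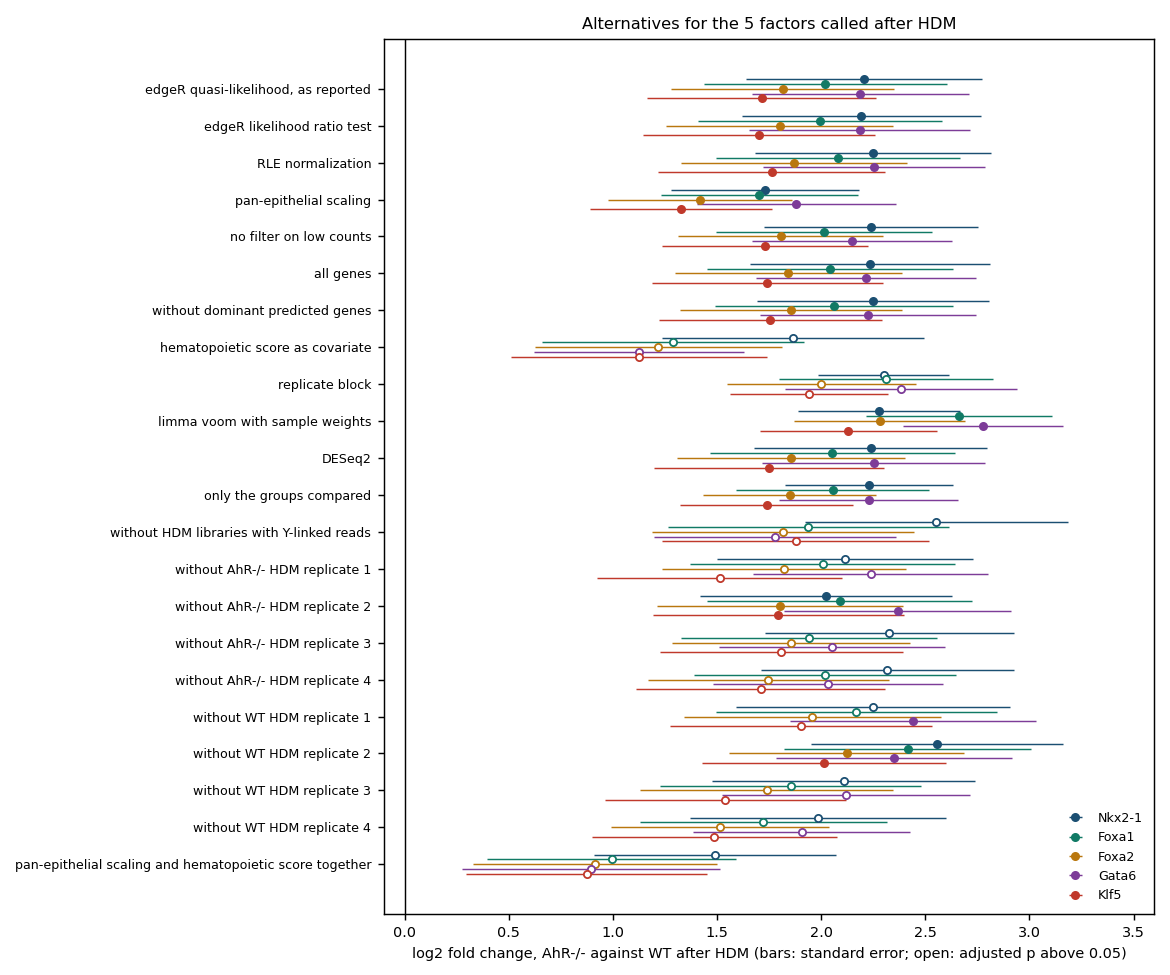
Log2 fold change of the 5 factors between the libraries labelled AhR-/- and WT after HDM (horizontal axis, bars are standard errors) under each alternative (vertical axis). Filled points passed an adjusted p of 0.05; every point lies above 0, while all 5 points are open with the hematopoietic markers as a covariate (alone or with pan-epithelial scaling), with the replicate block, without the libraries that carry Y-linked reads, and in 5 of the 8 settings that leave out a library.

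Markers of other cells moved with this comparison. Of 23 hematopoietic markers tested, 9 were lower in the libraries labelled AhR-/- and none higher, with a median log2 fold change of -1.76, and the summed level of the 24 markers was 351 to 1937 CPM in these libraries and 2023 to 6068 CPM in WT. Coro1a, an actin regulator of leukocytes, fell by 3.52 on the log2 scale (edgeR adjusted p = 0.0319), and Itgam, an integrin of myeloid cells, by 2.51 (adjusted p = 0.0308). Of 10 endothelial markers 1 was lower and none higher, with a median log2 fold change of 0.80. Of 11 mesenchymal markers none passed, with a median of 0.85 and 90.9% of them above 0. Over all genes, 22.1% passed in either direction and 9.22% in the higher direction, so the endothelial count is near the share of all genes. Ptprc was above 0 in every library, and Marco, Cd3e and Nkg7 were at 0 in at least 1 library labelled AhR-/-, as Marco was in WT. With the mean log2 level of these markers as a covariate, the log2 fold changes of the 5 factors were 1.12 to 1.86 and none passed, with adjusted p from 0.574 to 0.596, but 0 of all 14161 genes passed in that fit. In bulk RNA of sorted cells, fewer cells of a type and less RNA per cell cannot be told apart. The part of the other cells in the result was not tested further.

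Epithelial genes also moved, unequally. The shares of the lists below are to be read against the 9.22% of all genes that were called higher, and several lie near it. Among 18 pan-epithelial genes, 3 were higher in the libraries labelled AhR-/- and 1 lower, with a median log2 fold change of 0.76. The keratin Krt18 rose by 1.86 and the splicing factor gene Esrp1 by 1.68, whereas Spint1, a protease inhibitor, fell by 1.24 on the log2 scale. When libraries were scaled so that the mean of these 18 genes was equal, the median of all genes shifted to -0.61 and 15.7% of all genes were called. The 5 factors were still called, with log2 fold changes of 1.33 to 1.88, while Etv5 (-0.45), Sox9 (-0.48) and Elf3 (-0.29) turned below 0. Of the 36 other epithelial lineage factors tested, 7 were higher and none lower, with a median of 0.99. They included the nuclear factor I genes Nfib (2.08 ± 0.50) and Nfia (1.37 ± 0.35) and the glucocorticoid receptor gene Nr3c1 (1.45 ± 0.37). In the FGF pathway around Etv5, 2 of 15 genes were higher, the ligand Fgf18 at 2.73 and the inhibitor Spry1 at 1.84, with a median of 0.81 over the 15. Among genes that lineage factors act on, 1 of 20 alveolar type 2 genes was higher (Cldn18 at 1.96), as were 2 of 14 alveolar type 1 genes (Akap5 at 2.11 and Igfbp2 at 2.42) and 2 of 12 airway secretory genes (Aldh1a1 at 2.40 and Cyp2f2 at 1.73). The medians of these lists were 0.48, 2.06 and 1.80. Without replicates 3 and 4 of the libraries labelled AhR-/-, no gene of any list passed, and the medians were 1.18 for the alveolar type 2, 1.09 for the alveolar type 1 and 2.30 for the airway secretory genes, 1.13 for the other lineage factors, 0.73 for the FGF pathway, 0.84 for the pan-epithelial genes and -1.17 for the hematopoietic markers, against -0.07 over all genes.

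Between the HDM libraries labelled CYP1B1-/- and WT, 0 of the 9 factors passed edgeR's quasi-likelihood test and none had an unadjusted p under 0.05. Of all 14161 genes 0% passed, with 233 genes (1.65%) at an unadjusted p under 0.05, and 0 factors passed with DESeq2, limma voom or edgeR's likelihood ratio test. All 9 log2 fold changes were above 0, against 48.4% of all genes, with a median of 0.64 and a range from 0.18 in Sox9 to 1.20 ± 0.56 in Nkx2-1. Pan-epithelial scaling put the median of all genes at -0.17 and Sox9 at -0.33. Other lists lay on the same side without a call: all 11 mesenchymal markers were above 0 with a median of 1.15, all 20 alveolar type 2 genes with a median of 0.78, and 88.9% of 36 other lineage factors with a median of 0.55, so the shared direction is not particular to the factors. All 14 alveolar type 1 genes lay below 0, with a median of -0.37, and the hematopoietic markers had a median of -0.50. Replicate 2 held the highest level of its group for all 10 factors, with Nkx2-1 at 71.8 CPM against 11.5 to 28.3 CPM in the other 3 libraries, and its summed hematopoietic markers were the lowest of its group at 775 CPM.

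At steady state, 0 of the 9 factors tested passed in either genotype. Between the libraries labelled AhR-/- and WT, 0% of the 15547 genes passed by edgeR's quasi-likelihood test, with 0 factors and 263 genes (1.69%) below an unadjusted p of 0.05. Here 3 of the 9 factors had a log2 fold change above 0, against 48.8% of all genes. In the comparison of CYP1B1-/- with WT, 0.0129% of genes passed, 2 of 9 factors were above 0 against 43.5% of all genes, and Sox9 was the only factor among the 5.8% of genes with an unadjusted p under 0.05, at a log2 fold change of -0.69 ± 0.31 (edgeR adjusted p = 0.822). Sox9, a factor of the distal lung tip and of cartilage, was counted 18, 18 and 26 times in those libraries and 29 to 36 times in WT, without overlap in CPM, as were 1.46% of all genes in this direction. DESeq2, limma voom and the likelihood ratio test called 0 factors in both comparisons. Gata6, Foxa1, Foxa2 and Klf5 had overlapping ranges in the 3 genotypes, with Gata6 at 33.1 to 46.5 CPM in WT, 35.2 to 43.7 CPM in the libraries labelled AhR-/- and 20.8 to 44.4 CPM in those labelled CYP1B1-/-.

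Nkx2-1 varied far more than the other factors among libraries of the same group at steady state. It was at 59.9, 130, 198 and 326 CPM in WT, at 325, 219 and 35.1 CPM in the libraries labelled AhR-/- and at 666, 127 and 46.4 CPM in those labelled CYP1B1-/-. Its pooled within-group SD was 1.54 on the log2 scale, against a median of 0.29 over 5323 genes with a mean log2 CPM of at least 4, and only mt-Cytb exceeded it. The highest Nkx2-1 level came from the library with low mt-Cytb. The transcripts beside it did not share this spread: Sfta3-ps, a neighbour on the same strand, was at 117.2 to 276 CPM and was lowest in the library with the highest Nkx2-1 level. The 2 genes with the pattern nearest to Nkx2-1 over the 22 libraries were Ctf1, a cytokine gene, and Efnb1, an ephrin gene, with mean absolute differences of 0.41 and 0.47 between centred log2 CPM values, against a median of 1.48 over all genes. Efnb1 was at 14.9, 30.6, 30.8 and 38.0 CPM in WT, 36.5, 28.4 and 7.94 CPM in the libraries labelled AhR-/- and 48.9, 24.2 and 11.02 CPM in those labelled CYP1B1-/-. Its high and low libraries were those of Nkx2-1, but it was picked for this likeness, so the match is no separate support.

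Comparing HDM with steady state in WT, 5 factors were lower and 1 higher among the 10 tested. Over all 16639 genes, 38.4% passed, 19.4% lower and 19% higher. Of the 10, 3 had a log2 fold change above 0, against 45.9% of all genes, and their median was -1.19 against -0.11. The same 5 factors as above were the lower ones: Nkx2-1 at a log2 fold change of -3.51 ± 0.79 (adjusted p = 0.00129), Gata6 at -2.29 ± 0.42 (0.00016), Foxa2 at -2.26 ± 0.45 (0.000381), Foxa1 at -1.53 ± 0.46 (0.0104) and Klf5 at -1.46 ± 0.42 (0.00734), with p adjusted in edgeR. In each of them every HDM library lay below every steady-state library of WT, as did 21.2% of all genes. These comparisons and that of genotype after HDM share the WT HDM libraries, so they are not independent. All 10 steady-state libraries carried Y-linked reads and none of the 8 HDM libraries of WT and CYP1B1-/- did, so in these genotypes the state, the run and the carriage of Y-linked reads cannot be told apart.
Cebpa went the other way. It was at 1.43, 1.17, 1.22 and 0.920 CPM in the steady-state WT libraries and at 16.3, 7.36, 6.70 and 4.42 CPM after HDM, a log2 fold change of 2.89 ± 0.65 (edgeR adjusted p = 0.00131), with no overlap, as in 17.7% of all genes in this direction. Etv5 was also higher in every HDM library, at 34.2 to 59.6 CPM against 15.6 to 20.1 CPM, but did not pass (1.20 ± 0.63, edgeR adjusted p = 0.139). Sox9 lay below in every HDM library, at 0.448 to 1.37 CPM against 1.61 to 2.44 CPM, and did not pass either (-0.91 ± 0.46, edgeR adjusted p = 0.13).

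In the libraries labelled CYP1B1-/-, 4 factors were lower after HDM and 2 higher, with 33.4% of all genes passing, 17.9% lower and 15.5% higher. Of the 10, 4 were above 0, against 49.2% of all genes. Nkx2-1 (-3.06), Gata6 (-1.87), Foxa2 (-1.61) and Klf5 (-1.23) were lower, and Cebpa (3.58) and Etv5 (2.20) higher, on the log2 scale. Cebpa was at 0.766 to 1.56 CPM at steady state and at 6.99 to 24.2 CPM after HDM, and Etv5 at 10.1 to 18.3 CPM and 33.1 to 104 CPM, both without overlap, which held for 14.2% of all genes in this direction. Of the 4 lower factors, Gata6 alone did not overlap (8.12, 19.3, 4.23 and 9.31 CPM after HDM against 20.8, 43.4 and 44.4 CPM), as was true of 17.3% of all genes in that direction. Klf5 passed under 5 of the 20 alternatives, with log2 fold changes from -1.64 to -0.33. The count of factors fell from 6 to 3 when steady-state replicate 2, the library with low mt-Cytb, was left out. Of all genes, 32.1% passed in that fit.
In the libraries labelled AhR-/-, 2 factors were higher and none lower, with 20.6% of all genes passing, 10.6% higher and 10.1% lower. Of the 10, 6 were above 0, against 48.2% of all genes. Cebpa rose by 4.25 ± 0.78 (edgeR adjusted p = 0.00125) and Sox2, the airway-side factor, by 2.78 ± 0.74 (edgeR adjusted p = 0.0111), from 2 to 7 counts per library at steady state to 1 to 84 counts after HDM. Sox2 levels were 0.419, 0.230 and 0.123 CPM at steady state and 3.01, 2.32, 0.455 and 0.884 CPM after HDM. Neither factor's groups overlapped, which held for 12.7% of all genes in this direction, with 3 counts worth as much as 1.36 CPM in replicate 3. Etv5 missed the threshold (1.88 ± 0.71, edgeR adjusted p = 0.0637). Foxa1 (0.54), Foxa2 (-0.14), Gata6 (-0.17) and Klf5 (0.00) had log2 fold changes near 0 and overlapping libraries, and Nkx2-1 was at -1.39 ± 0.77 (edgeR adjusted p = 0.208).
Without the 2 HDM libraries that carry Y-linked reads, Cebpa (5.11), Sox2 (3.39) and Etv5 (2.78) passed in the genotype labelled AhR-/-, as did 23.6% of all genes. Among libraries with Y-linked reads only, where 13.6% of all genes passed, Cebpa was the only factor that did, at 1.93 ± 0.56 (edgeR adjusted p = 0.0343), Sox2 was at 1.63 (adjusted p = 0.236) and Etv5 at -0.27 (adjusted p = 0.823).

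**Figure D3:**
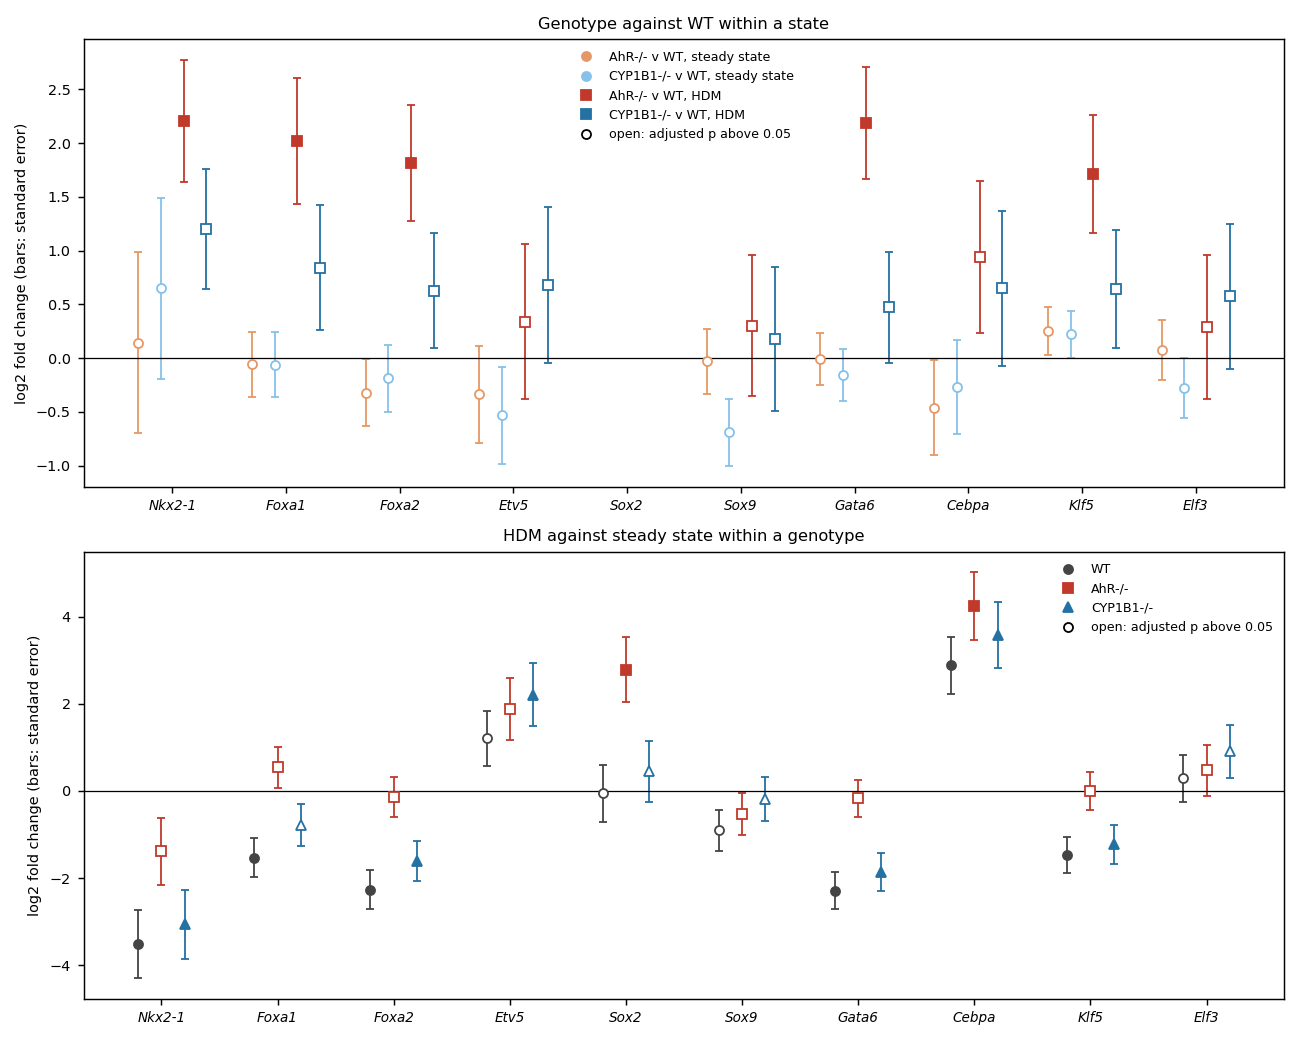
Log2 fold changes of the 10 factors with standard errors (vertical axis), for genotype against WT within each state (top; Sox2 was not tested) and for HDM against steady state within each genotype (bottom). Filled points passed an adjusted p of 0.05: the 5 factors higher in the libraries labelled AhR-/- after HDM are those lower after HDM in WT, and Cebpa was higher after HDM in all 3 genotypes.

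The difference between genotypes in the response to HDM was tested as an interaction. For the libraries labelled AhR-/- against WT, 0 of the 10 factors and 0% of all 16639 genes passed edgeR's quasi-likelihood test, while 5 factors and 18.3% of all genes fell below 0.05 before adjustment. These were Gata6 at 2.13 (adjusted p = 0.149), Foxa2 at 2.12 (adjusted p = 0.149), Foxa1 at 2.07 (adjusted p = 0.149), Sox2 at 2.83 (adjusted p = 0.159) and Klf5 at 1.47 (adjusted p = 0.207), as log2 differences between fold changes. All 10 values were above 0, against 50.7% of all genes, though Elf3 (-0.30) and Sox9 (-0.38) were below 0 under pan-epithelial scaling, which put the median of all genes at -0.55. DESeq2 called 3 of the 10 and 7.34% of all genes, limma voom 4 and 30.3%, and the likelihood ratio test 1 and 1.33%. Without the 2 HDM libraries that carry Y-linked reads, 0 factors passed, with Gata6 at 1.77, Foxa2 at 2.14, Foxa1 at 2.01 and Sox2 at 3.32 (edgeR adjusted p = 0.366 for each) and Klf5 at 1.63 (edgeR adjusted p = 0.379). For CYP1B1-/-, 0 factors and 0% of genes passed by the quasi-likelihood test, with 0 factors and 2.3% of genes at an unadjusted p under 0.05, and DESeq2, limma voom and the likelihood ratio test called 0.

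After HDM in WT, where 19% of all genes were called higher and 19.4% lower, 20 of 24 hematopoietic markers were higher and none lower. Their median log2 fold change was 3.63. Their summed level rose from 295 to 539 CPM per library to 2023 to 6068 CPM. Of the 14 alveolar type 1 genes, 12 were lower and none higher, with a median of -2.88. Among those of lowest p were Akap5 at -3.42, Emp2 at -2.75, Clic5 at -3.66 and Pdpn at -2.45. Of the 20 alveolar type 2 genes, 9 were higher and 1 lower, with a median of 1.50. The higher ones included the protease Napsa at 3.41, the chitinase-like Chil1 at 3.74 and the surfactant protein Sftpd at 3.22. The tight junction gene Cldn18 was lower at -2.59. The pan-epithelial list had 13 of 18 genes lower and 3 higher, with a median of -1.35. Under scaling on this list, 40.9% of all genes passed in WT, 12% in AhR-/- and 36.5% in CYP1B1-/-. This scaling shifted the median of all genes to 0.81 in WT. Nkx2-1 (-2.66), Gata6 (-1.63) and Foxa2 (-1.55) were still called lower under it, Foxa1 (-0.83) and Klf5 (-0.76) were not, and Etv5 (2.00) was called higher, as was Cebpa (3.54). Sox2 and Sox9 turned above 0 in WT under this scaling, as did Foxa2 and Gata6 in the genotype labelled AhR-/- and Sox9 in that labelled CYP1B1-/-, where Elf3 was then called higher (1.58). With the hematopoietic markers as a covariate no factor passed in any of the 3 genotypes, and the share of all genes that passed was 0.0601% in WT, 1.7% in AhR-/- and 1.19% in CYP1B1-/-. In WT the log2 fold changes of the 6 factors called without it were -3.21 in Nkx2-1, -1.85 in Foxa2, -1.33 in Gata6, -1.05 in Klf5, -0.87 in Foxa1 and 1.38 in Cebpa (edgeR adjusted p from 0.252 to 0.694). Their part in the result was not tested further.
The lists also moved in the other genotypes. Of all genes, 10.6% were called higher and 10.1% lower in AhR-/-, and 15.5% and 17.9% in CYP1B1-/-. In the libraries labelled AhR-/-, 20 of 24 hematopoietic markers were higher after HDM and 1, Csf1r, lower, with a median log2 fold change of 3.92. There 12 of 20 alveolar type 2 genes (median 2.41) and 5 of 12 airway secretory genes (median 1.76) were higher and none lower. Of 14 alveolar type 1 genes 1 was lower (median -1.02), a share near that of all genes. The libraries differed: the mean log2 level of the hematopoietic markers was 4.30 and 4.97 in HDM replicates 1 and 2 and 2.17 and 2.19 in replicates 3 and 4. The alveolar type 2 genes summed to 88490 and 53960 CPM and to 10420 and 11150 CPM in the same order. In the libraries labelled CYP1B1-/-, 21 of 24 hematopoietic markers were higher and Csf1r lower (median 4.72), 14 of 20 alveolar type 2 genes were higher and 1 lower (median 2.94), and 13 of 14 alveolar type 1 genes were lower (median -3.32).

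**Figure D4:**
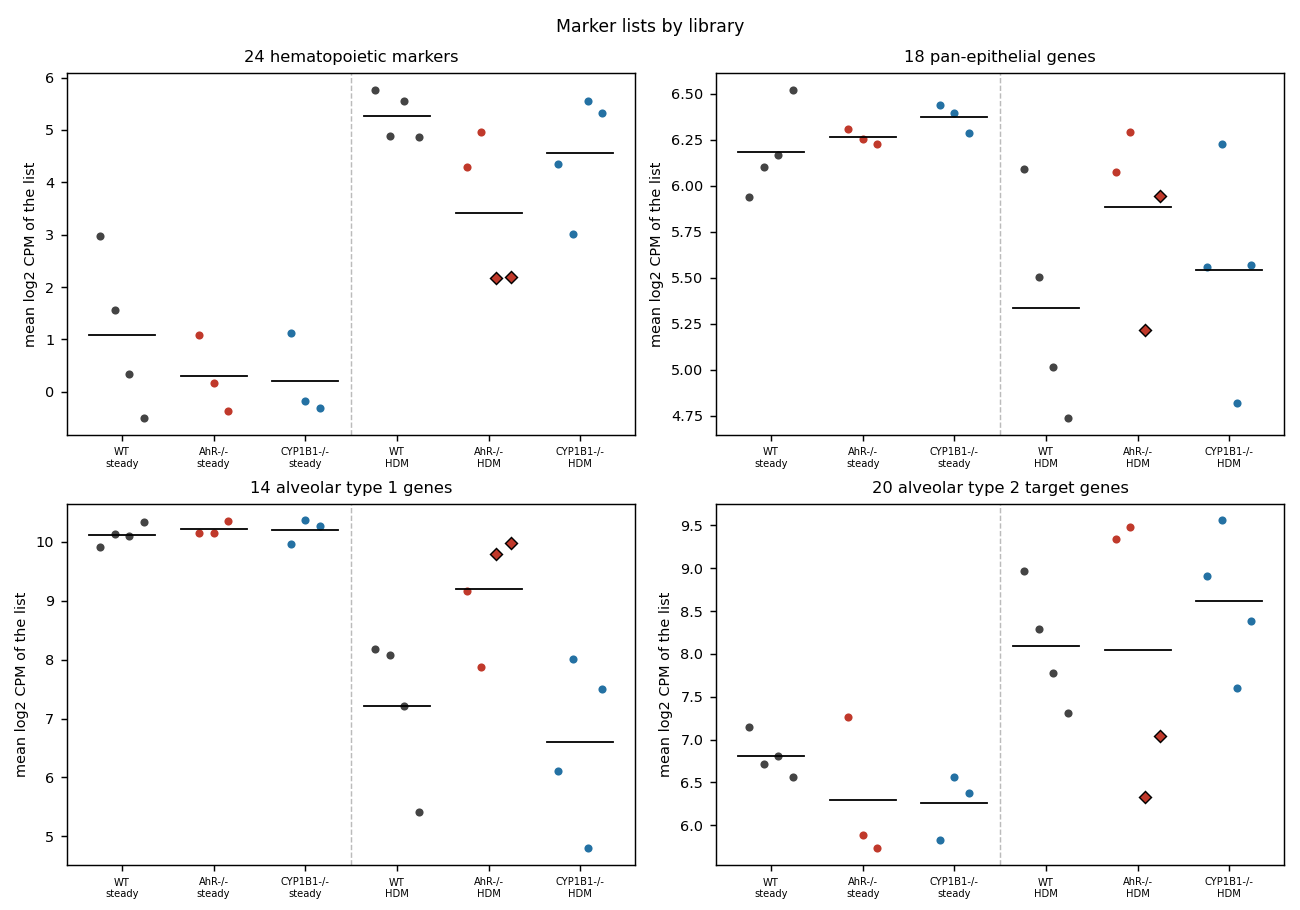
Mean log2 CPM of 4 marker lists in each library (vertical axis) by genotype and state (horizontal axis), with a line at each group mean. Diamonds are the 2 HDM libraries labelled AhR-/- with Y-linked reads, whose hematopoietic level is below that of every other HDM library and whose alveolar type 1 level is above that of every other HDM library.

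Other lineage factors were also divided after HDM in WT, with 5 of 38 higher and 11 lower, against 19% and 19.4% of all genes, and a median log2 fold change of -0.89. Id2, a dominant-negative helix-loop-helix factor, rose by 4.67, Klf4 by 2.22, Ehf, an ETS relative of Elf3, by 2.19, and Spdef, a goblet cell factor, by 2.28. Rfx2 fell by 2.40, Foxp2 by 2.17, Nfia by 1.88 and Nfib by 2.32 on the log2 scale. In the FGF pathway 6 of 16 genes were lower, among them Fgf18 (-3.08), the adaptor Frs2 (-1.66), Fgf1 (-3.38) and Fgf10 (-2.47), and Fgfr1 was higher (1.38). In the genotype labelled AhR-/-, 8 of the 38 factors were higher and 2 lower, against 10.6% and 10.1% of all genes, and in the genotype labelled CYP1B1-/- 7 were higher and 10 lower, against 15.5% and 17.9%. The airway secretory list had 4 of 12 genes higher and 3 lower in WT, with the mucins Muc5ac (3.73) and Muc5b (1.96) and the trefoil factor Tff2 (4.23) among the higher ones.

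Within the 10 factors, the closest patterns over the 22 libraries were those of Foxa1 and Klf5, which differed by a mean of 0.29 on the centred log2 CPM scale, then Foxa2 and Gata6 at 0.35 and Foxa1 and Foxa2 at 0.40. The nearest protein-coding genes to Gata6 were Epha4 (0.18) and Cers4 (0.20), to Klf5 Ryk (0.18) and Zcchc14 (0.25), to Foxa1 Spry1 (0.25) and Klf5, and to Foxa2 Ube2e2 (0.25) and Eva1a (0.27). The nearest to Cebpa were Muc4 (0.30) and Gclc (0.31), to Etv5 Atp6v1c2 (0.26) and Ppp1r14c (0.28), and to Elf3 Itm2a (0.28) and Ptgs1 (0.32). Sox2 (Cracr2b at 0.43 and Meig1 at 0.47) and Sox9 (Zfp239 and Acad12, both at 0.34) rest on few counts. Libraries share depth and cell composition, so these distances are a description.

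The factors lie on GRCm38 at chr12:56531958-56536908 (Nkx2-1), chr12:57540628-57546916 (Foxa1), chr2:148042877-148046969 (Foxa2), chr16:22381309-22439719 (Etv5), chr1:135253575-135258568 (Elf3), all on the minus strand, and at chr3:34650405-34652461 (Sox2), chr11:112782224-112787760 (Sox9), chr18:11052064-11085635 (Gata6), chr7:35119293-35121928 (Cebpa) and chr14:99298691-99315036 (Klf5) on the plus strand. Etv5 shares 26.8% of its 50-base transcript stretches with the processed pseudogene Gm4798, which was counted 1 to 120 times per library against 10 to 1879 times for Etv5, so its level is uncertain. Nkx2-1 shares 2.68% and Klf5 0.121% of such stretches with other transcripts, and the other factors none. Exons on the opposite strand overlap 7.31% of the Elf3, 1.94% of the Cebpa and 1.43% of the Gata6 exon length, and the strand setting of the counting is not stated.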

How the data were processed

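RNA of sorted ECs was sequenced in 22 libraries. Per the labels and methods, the authors trimmed reads with bbduk, mapped them with GSNAP to mm10 and deposited counts per gene from featureCounts 2.0.0 (Ensembl release 99), without normalization. Members and lists were chosen with earlier results of these data known. Genes were matched to GENCODE M21, and protein-coding genes passing filterByExpr (minimum count 10, minimum total 15) were tested with glmQLFit and glmQLFTest in edgeR 4.0.16 (R 4.3.3), with TMM factors and Benjamini-Hochberg adjustment at 0.05. Genotypes were compared within a table, since its libraries share a run, and states and interactions in a fit of 6 groups. Standard errors were derived from each log2 fold change and its F statistic, and log2 CPM uses a prior count of 1. Member fold changes count as results where the unadjusted p was under 0.05; from lists, up to 4 called genes of lowest p in each direction, and the 2 nearest genes of each factor, are named. The genes Gm10800, mt-Cytb, Ddx3y, Gm4798 and the noncoding neighbours were named after their values were seen. Alternatives were edgeR's likelihood ratio test, DESeq2 1.42.0, limma 3.58.1 voom with sample weights, other scalings and filters, covariates, a replicate block and each library left out. Scripts were tested on simulated data. Gata6 sequence and windows not in the reference table are not shown.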

Additional observations from a re-analysis of the deposited data

Results flagged for a closer look

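Of 40 sets of 4 libraries tested for a single far value (10 factors in 4 groups), 2 held one by Dixon's ratio at the 95% level, as many as the 2 that chance gives. Etv5 was at 5.90 log2 CPM (59.6 CPM, 1330 counts) in WT HDM replicate 1 and at 5.10 to 5.19 in the other 3 libraries. Sox9 was at -0.95 log2 CPM (10 counts) in the same library and at 0.29 to 0.53 in the others.

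Of 12 noncoding genes beside the factors, which no comparison above uses, 8 had at least 100 counts over all libraries. In 4 of the 8 every HDM library labelled AhR-/- was above every WT HDM library, and these 4 are given because they separated. The other 4, Sox2ot, Gm42692, BC006965 and Gm26642, did not separate in this direction. Sfta3-ps, beside Nkx2-1, was at a mean of 288 CPM (lowest 184) against at most 102 CPM in WT. The antisense gene Gm26973 at Nkx2-1 was at 7.24 CPM (lowest 5.66) against at most 3.04. The lincRNA 9030622O22Rik beside Foxa2 was at 4.59 CPM (lowest 3.18) against at most 1.52, and 1010001N08Rik beside Gata6 was at 3.15 CPM (lowest 1.37) against at most 1.06. Such separation in this direction held for 9.63% of the protein-coding genes tested. Reads of antisense genes and their partners cannot be told apart without a stated strand setting.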

How the results depend on the processing

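Between AhR-/- and WT after HDM, 5 factors were called under the likelihood ratio test, DESeq2, voom, RLE scaling, pan-epithelial scaling, no filter, all genes, no dominant genes and the compared groups only, while the share of all genes called ran from 8.41% (no filter) to 47.1% (voom). The count fell to 0 with the hematopoietic covariate, alone or with pan-epithelial scaling, with the replicate block, and without the HDM libraries with Y-linked reads, fits in which 0 genes in all were called (1 of 14161 with the block), and ranged from 0 to 5 with a library left out. The covariate, alone or with pan-epithelial scaling, also gave 0 for HDM against steady state in WT, AhR-/- and CYP1B1-/-. At most 1.7% of all genes were called in these fits. The count in AhR-/- was 1 with only the groups compared (20.3% of all genes called) or only libraries with Y-linked reads (13.6%). It was 3 with the likelihood ratio test (24.7%), DESeq2 (27.5%), pan-epithelial scaling (12%) or without HDM Y-linked carriers (23.6%). Single libraries left out gave 1 to 3 (8.93% to 23.7%). In CYP1B1-/- it was 4 with only the groups compared (28%) and 3 to 6 with a library left out (25.7% to 35.6%). With RLE, pan-epithelial scaling, no filter, all genes, no dominant genes, voom, DESeq2 or without HDM Y-linked carriers it was 5 (23.5% to 40.8%). In WT it was 6 with any single library left out (32.3% to 40.5%) and 5 with pan-epithelial scaling (40.9%). It was 7 with only the groups compared (49.5%, 9 factors tested) or without HDM Y-linked carriers (38.6%). For the AhR-/- interaction, 0 factors became 1 (likelihood ratio test, 1.33% of all genes), 4 (voom, 30.3%), 3 (DESeq2, 7.34%) and 3 (only the groups compared, 6.2%). With a library left out it was 0 to 1, with 0% to 6.14% of all genes called. Etv5 reversed in AhR-/- among libraries with Y-linked reads (-0.27). The causes were not tested. The interaction with carriers of Y-linked reads only was not run, since no WT HDM library carries them. Combining scaling and covariate, and leaving out the Y-linked carriers outside the first comparison and for lists and levels per kilobase, were chosen after seeing the data. Whether replicate numbers pair libraries is not given in the sources used here. Deviations of same-numbered libraries correlated at a median of -0.18 after HDM (range -0.47 to 0.67) and 0.07 at steady state (-0.02 to 0.24). Those of different-numbered libraries had medians of 0.10 (-0.67 to 0.52) and -0.07 (-0.27 to 0.24). The highest HDM values, 0.67, 0.63 and 0.57, were of same-numbered libraries, so the medians do not settle whether some were paired. The block changed no other count of calls.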
